A study of Mus musculus with 6 samples.

Results

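The 53 genes described here encode proteins of the cytosolic ribosome, 31 of them in the large subunit and 22 in the small subunit. They were chosen by name, as broadly active housekeeping genes, from 21887 protein-coding genes on the assembled chromosomes, and all 53 names matched the RefSeq table. The question was whether their ends carried estrogen receptor alpha (ERα) peaks and whether estradiol altered those peaks. ERα is the product of Esr1. Its occupancy was profiled by CUT&RUN, in which micrococcal nuclease, brought to a protein by an antibody, cuts the DNA around it, and the freed fragments are sequenced. Nuclei were isolated from the limbic system of adult male C57/BL6 mice. Every male had been gonadectomized at 10 to 12 weeks of age. After 3 weeks the estradiol group (3 libraries) received 5 µg of estradiol benzoate under the skin, and the vehicle group (3 libraries) received corn oil, 4 hours before nuclei were isolated. Controls thus lacked testicular hormone as well. Whether libraries of one group stem from different animals is not stated in the labels, so the spread between them may be technical.

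A ribosome needs a supply of each of its proteins, and ribosomal protein genes are transcribed strongly in nearly every cell type. Their mammalian promoters are compact and are known for binding sites of ETS factors such as GABP, of Sp1 and of YY1, and for transcription that starts within a pyrimidine tract. ERα binds DNA through a palindromic estrogen response element, and it can also be found on chromatin through other factors. These genes are not textbook estrogen targets in brain.

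The deposited lists held 11082, 14123 and 17558 peaks in estradiol replicates 1, 2 and 3, and 5421, 13717 and 20541 in vehicle replicates 1, 2 and 3. The vehicle replicate 1 list was the shortest and touches every comparison below. The median peak of every library stood on an estimated 6 fragments at its summit and the smallest on 4, so a missing peak is not evidence of missing protein. No control library was used here, and whether a peak marks ERα itself was not tested. In whole tissue, binding in few cells and weak binding in many cannot be told apart, and peak lists hold no markers against which the tissue label could be checked.

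Most ribosomal protein genes had an ERα peak within 1 kb of an end of the gene, in estradiol and in vehicle libraries. In estradiol replicates 1, 2 and 3, peaks were found at 43, 47 and 47 of the 53 genes (81.1%, 88.7% and 88.7%). In vehicle replicates 1, 2 and 3 they were found at 28, 48 and 48 (52.8%, 90.6% and 90.6%). The same rule gave 23.5%, 28.1% and 28.1% of the 21834 other protein-coding genes in the estradiol libraries and 14.1%, 26.8% and 33.5% in the vehicle libraries. The other genes include those silent in this tissue, as expression was not measured. The share of ribosomal protein genes was thus higher than the share of other genes within each of the 6 libraries.

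**Figure D1:**
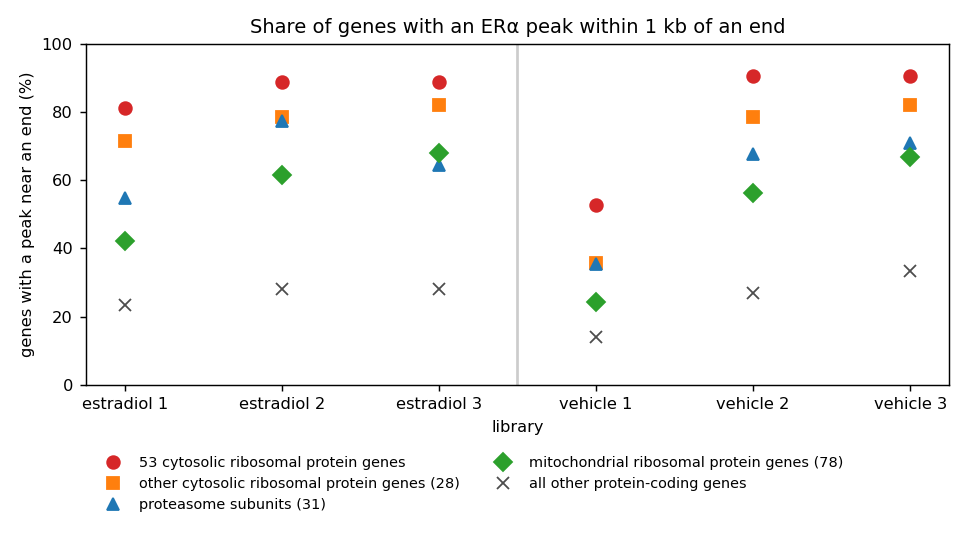
Percent of genes (y axis) with at least 1 peak within 1 kb of either end of the gene, for each library (x axis, estradiol left of the grey line and vehicle right of it); symbols stand for the gene lists, with the number of genes in brackets. The 53 cytosolic ribosomal protein genes lie at 81.1% to 88.7% in estradiol libraries and at 52.8% to 90.6% in vehicle libraries, above the other lists shown in each library.

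Peaks of all 6 libraries were found at 26 of the 53 genes (49.1%), against 11.5% of other protein-coding genes. A further 15 genes had a peak in 5 libraries (6.92% of other genes did), 5 in 4 (5.02%), 3 in 3 (4.3%), 0 in 2 (5.07%), 1 in 1 (7.22%) and 3 in 0 (13093 of the 21834 other genes). Of the 15, 13 lacked a peak only in vehicle replicate 1. That is 24.5% of the 53 genes, against 5.5% of all other genes. Among the 1510 other genes with a peak in 5 libraries, 1201 likewise lacked one only in vehicle replicate 1. The folds at the 13 ribosomal protein genes were 4.86 (Rps25, estradiol replicate 1) to 12.9 (Rps7, vehicle replicate 3). Those 13 include Rplp1 and Rplp2, the acidic stalk proteins, Rpl5, which carries 5S ribosomal RNA together with Rpl11, and Rps6, the substrate of S6 kinases. Rps6 had folds of 8.47, 8.96 and 9.55 in estradiol replicates 1, 2 and 3, and 9.93 and 7.99 in vehicle replicates 2 and 3. The 2 others, Rps20 and Rpsa, lacked one only in estradiol replicate 1, with folds of 4.03 to 11.9. Rpsa encodes the small-subunit protein that is also called the laminin receptor.

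No ribosomal protein gene had a peak in all 3 estradiol libraries and in 0 vehicle libraries, a pattern that 57 of 21834 other genes showed (0.261%). None had the reverse pattern, which 8 other genes showed (0.0366%). At these background shares 0 of 53 is no result about the ribosomal protein genes. With 3 libraries against 3, no gene can pass an exact permutation test (smallest two-sided p = 0.1), so groups were compared by counts.

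The number of ribosomal protein genes with a peak averaged 45.7 ± 2.31 in estradiol libraries and 41.3 ± 11.5 in vehicle libraries (SD, n = 3 each). The difference of 4.33 genes was smaller than the spread of the vehicle libraries. On the full lists it rested on vehicle replicate 1, without which it turned to -2.33. Replicates 1 and 2 carry fuller labels than replicate 3, whose peaks are also named in another style, and replicate 3 was therefore looked at on its own. Within replicates 1 and 2 the difference was 7 genes, and in replicate 3, with 1 library per group, it was -1. Cutting every list to its best 5421 peaks left 35, 37 and 41 genes in estradiol replicates 1, 2 and 3 and 28, 34 and 35 in vehicle replicates 1, 2 and 3. On these equally long lists the difference was 5.33 genes, and 3.17 without vehicle replicate 1, a setting chosen after seeing the data. At that length other genes had shares of 16.1%, 17.8% and 15.4% in estradiol libraries and 14.1%, 16.5% and 17.0% in vehicle libraries.

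**Figure D2:**
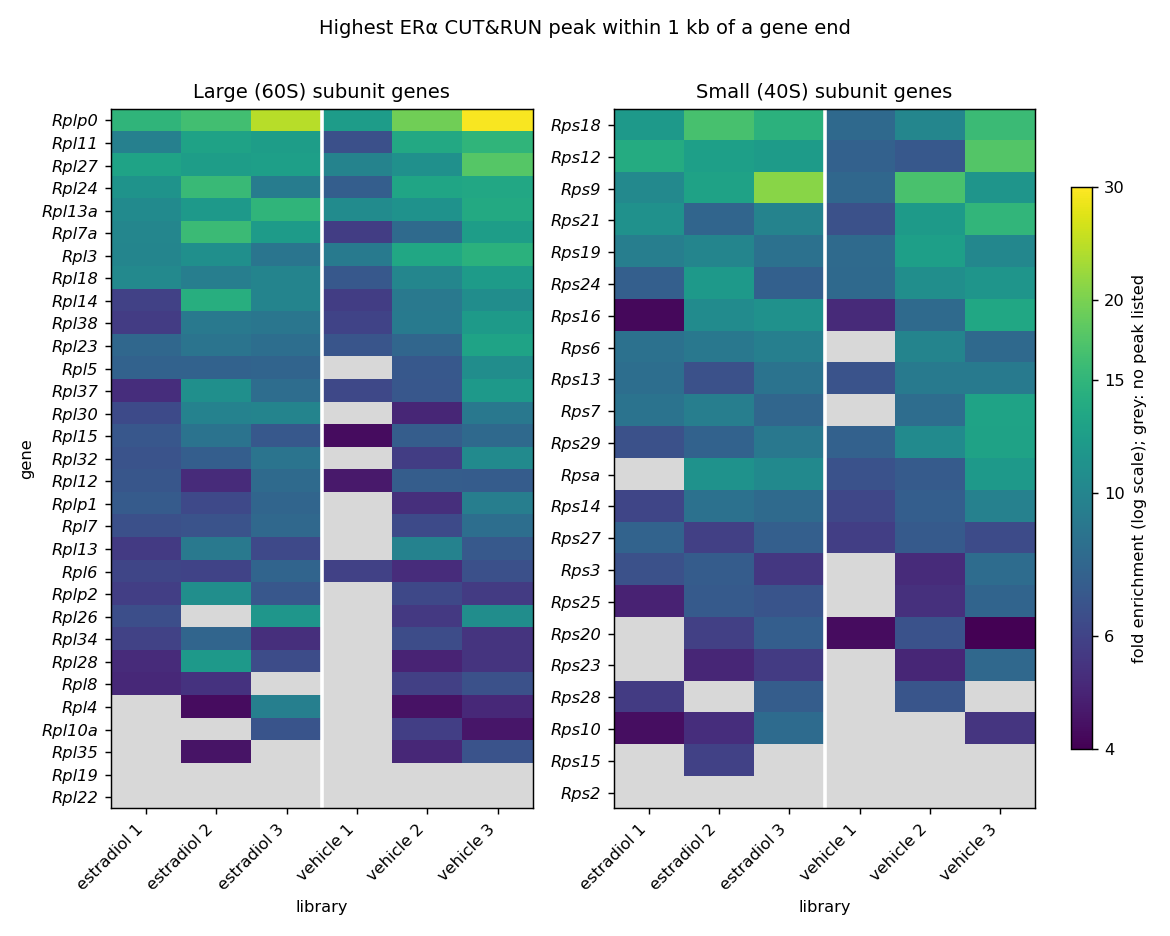
Fold enrichment over the caller's background (colour, log scale) of the highest peak within 1 kb of a gene end, for each ribosomal protein gene (rows, ordered by median rank within the lists) and library (columns, estradiol left and vehicle right of the white line); grey means that no peak is listed. Rplp0 has the highest fold in each library except estradiol replicate 2, with folds of 12.2 to 29.4, and the vehicle replicate 1 column holds 25 of the grey cells.

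Sequence is shown for the 4 genes with the highest peaks by median rank (Rplp0, Rps18, Rpl11 and Rpl27), for Rps10, which differed most between the groups, and for 2 genes without a peak at a gene end (Rpl19 and Rpl22). The starts shown for these 2 genes are not free of peaks. Every library had a peak at the Rpl22 start, and estradiol replicates 2 and 3 and vehicle replicate 3 had one at the Rpl19 start. The other listed start of Rpl22, at 152324436, had none and is not shown. Rpl19 has a second listed start as well, at 98026924, with the same peaks near it. That start is not shown either, and its stretch held no ETS core or CCAAT box. Each stretch runs from 120 bases before the transcript start to 30 bases from it on, 5′ to 3′ on the gene's strand, from the RefSeq promoter table of build GRCm38.p6, which shares its coordinates with mm10. Capitals mark an ETS core (CCGGAAG, or CTTCCGG on the other strand) or a CCAAT box (CCAAT, or ATTGG), and positions are counted from the start base as 0, to the first base of a match. Rplp0 is on the plus strand at chr5:115559347-115559496, Rps18 on the minus strand at chr17:33955636-33955785 and Rpl11 on the minus strand at chr4:136053364-136053513. Rpl27 is on the plus strand at chr11:101442125-101442274, Rps10 on the minus strand at chr17:27635215-27635364, Rpl19 on the plus strand at chr11:98026590-98026739 and Rpl22 on the plus strand at chr4:152325606-152325755.
Rplp0: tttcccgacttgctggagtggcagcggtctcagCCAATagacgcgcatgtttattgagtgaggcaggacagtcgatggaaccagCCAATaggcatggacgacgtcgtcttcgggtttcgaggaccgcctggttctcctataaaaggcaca
Rps18: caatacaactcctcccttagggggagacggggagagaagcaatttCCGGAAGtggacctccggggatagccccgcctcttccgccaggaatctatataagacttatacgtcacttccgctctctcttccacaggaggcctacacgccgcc
Rpl11: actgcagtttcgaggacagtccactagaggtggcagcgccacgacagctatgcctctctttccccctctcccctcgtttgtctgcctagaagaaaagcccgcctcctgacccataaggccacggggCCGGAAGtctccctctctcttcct
Rpl27: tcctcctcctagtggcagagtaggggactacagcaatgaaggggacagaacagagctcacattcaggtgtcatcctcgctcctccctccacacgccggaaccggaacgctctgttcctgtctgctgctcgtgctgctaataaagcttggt
Rps10: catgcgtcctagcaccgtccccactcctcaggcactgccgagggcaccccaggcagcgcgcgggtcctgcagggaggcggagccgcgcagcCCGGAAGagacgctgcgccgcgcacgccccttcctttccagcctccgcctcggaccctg
Rpl19: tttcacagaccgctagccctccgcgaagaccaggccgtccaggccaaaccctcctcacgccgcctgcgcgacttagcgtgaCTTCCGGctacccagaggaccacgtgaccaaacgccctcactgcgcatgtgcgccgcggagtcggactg
Rpl22: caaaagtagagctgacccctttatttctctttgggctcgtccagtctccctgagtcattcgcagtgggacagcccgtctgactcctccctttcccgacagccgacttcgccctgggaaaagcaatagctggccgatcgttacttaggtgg

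Of the 53 genes, Rplp0 had the highest peak in each library except estradiol replicate 2, where Rps18 was higher (16.7 against 16.3). Rplp0 encodes P0, the base of the stalk that recruits translation factors to the large subunit (chromosome 5, 115559467 to 115563729). Its fold enrichment at the summit was 14.9, 16.3 and 24.1 in estradiol replicates 1, 2 and 3, and 12.2, 19.4 and 29.4 in vehicle replicates 1, 2 and 3. The groups overlapped, and within each group replicate 3 was the highest. The summits stood on an estimated 19, 24 and 44 fragments in the estradiol libraries and 16, 28 and 62 in the vehicle libraries. All 6 summits fell within 9 bp of each other, at -60 to -51 bp from the transcript start. That stretch lies between the CCAAT boxes at -87 and -36. The other stalk genes were lower: Rplp1 had folds of 7.12, 6.24 and 7.74 in estradiol replicates 1, 2 and 3, and 5.23 and 9.48 in vehicle replicates 2 and 3. Rplp2 had 5.81, 10.8 and 6.92 in estradiol replicates 1, 2 and 3, and 6.18 and 5.67 in vehicle replicates 2 and 3.

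In the large subunit, the next highest genes were Rpl11, Rpl27, Rpl24 and Rpl13a. Rpl11, whose free protein binds the p53 regulator Mdm2, had folds of 9.6, 12.8 and 12.3 in estradiol replicates 1, 2 and 3, and 6.52, 13.5 and 15.0 in vehicle replicates 1, 2 and 3. Rpl27 had 12.9, 12.3 and 12.5 in estradiol replicates 1, 2 and 3, and 9.87, 11.0 and 17.7 in vehicle replicates 1, 2 and 3. In both genes vehicle replicate 1 was the lowest library and vehicle replicate 3 the highest, so the vehicle libraries enclosed the estradiol ones. Rpl24, which takes part in a bridge between the subunits, had 11.3, 15.7 and 9.32 in estradiol replicates 1, 2 and 3, and 7.32, 13.1 and 13.4 in vehicle replicates 1, 2 and 3. Rpl13a, known in human cells for a role in silencing inflammatory mRNAs outside the ribosome, had 10.5, 11.8 and 14.9 in estradiol replicates 1, 2 and 3, and 10.6, 11.2 and 13.6 in vehicle replicates 1, 2 and 3. The groups overlapped at both genes. Rpl3, Rpl7a, Rpl18, Rpl14, Rpl38, Rpl23, Rpl37, Rpl15, Rpl12 and Rpl6 also had peaks in all 6 libraries, with folds of 4.26 (Rpl15, vehicle replicate 1) to 15.8 (Rpl7a, estradiol replicate 2). Rpl38, whose loss in mice alters translation of Hox mRNAs, had 5.74, 9.02 and 8.81 in estradiol replicates 1, 2 and 3, and 6.0, 9.19 and 12.0 in vehicle replicates 1, 2 and 3.

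In the small subunit, the highest genes were Rps18, Rps12 and Rps9. Rps18, a protein of the subunit's head, had folds of 11.9, 16.7 and 14.6 in estradiol replicates 1, 2 and 3, and 7.94, 10.1 and 15.8 in vehicle replicates 1, 2 and 3. Its peak also lay within 1 kb of an end of Vps52, so it cannot be given to either gene alone. Rps12 had 13.8, 12.5 and 12.1 in estradiol replicates 1, 2 and 3, and 7.46, 6.95 and 17.5 in vehicle replicates 1, 2 and 3. Rps9 had 10.3, 12.8 and 20.9 in estradiol replicates 1, 2 and 3, and 7.87, 16.8 and 11.4 in vehicle replicates 1, 2 and 3. The groups overlapped at each of the 3 genes. Rps21, Rps19, Rps24, Rps16, Rps13, Rps29, Rps14 and Rps27 had peaks in all 6 libraries as well, with folds of 4.18 (Rps16, estradiol replicate 1) to 15.1 (Rps21, vehicle replicate 3). Rps19, whose human gene is the one most often mutated in Diamond-Blackfan anemia, had 9.49, 10.0 and 8.5 in estradiol replicates 1, 2 and 3, and 8.04, 12.5 and 10.2 in vehicle replicates 1, 2 and 3. Peaks of all 6 libraries were found at 15 of 31 large-subunit genes and 11 of 22 small-subunit genes.

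Rps10, which lies near the mRNA entry side of the small subunit, was the only gene whose libraries with a peak differed by at least 2 between the groups. Other genes did so in 2.08% of cases towards estradiol and 1.31% towards vehicle, so 1 of 53 is close to the background. At the transcript start of Rps10 (chromosome 17, gene at 27630415 to 27635244) the fold was 4.32, 5.07 and 8.06 in estradiol replicates 1, 2 and 3, standing on 4, 5 and 9 summit fragments. In vehicle libraries it had a peak only in replicate 3, with a fold of 5.48 from 6 fragments. Estradiol replicate 2 and vehicle replicate 3 also had a peak near the far end of the gene, of 5.2 and 4.38. The estradiol peaks of replicates 1 and 2 stood at or next to the smallest number of fragments called.

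At Rpl7 the 2 groups differed in where peaks were listed. On chromosome 1, estradiol replicates 1, 2 and 3 had a peak within 16104404 to 16104527, with folds of 4.94, 5.96 and 7.92, where no vehicle library had one. These peaks stood on 5, 7 and 10 summit fragments, where the smallest peaks called stood on 4. A neighbouring peak within 16104635 to 16104814 had folds of 6.56, 6.69 and 6.5 in estradiol replicates 1, 2 and 3, and 6.29 and 8.31 in vehicle replicates 2 and 3. Merging overlapping peaks of the 6 lists gave 67 regions near ends of ribosomal protein genes. Of these, 27 held all 6 libraries, 1 was found in every estradiol and no vehicle library (the one at Rpl7) and 0 the reverse, against 2034, 39 and 12 of 9468 regions near other genes' ends. Rpl7 was chosen after its values were seen.

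Apart from Rps10, 8 genes had peaks in 1 to 4 libraries. Rpl4, Rpl8, Rpl26 and Rps23 had peaks in 2 estradiol and 2 vehicle libraries, with folds of 4.28 to 11.5. The highest were at Rpl26, with 11.5 in estradiol replicate 3 and 10.7 in vehicle replicate 3. Rpl35 and Rpl10a had them in 1 estradiol and 2 vehicle libraries, and Rps28 in 2 estradiol libraries and 1 vehicle library. The folds at these 3 genes were 4.46 to 7.25. Rps15 had 1 peak, of 5.91, in estradiol replicate 2.

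Rpl19, Rpl22 and Rps2 had no peak within 1 kb of either end of the gene span. Their RefSeq spans reach over 1 kb upstream of a listed transcript start. At such a start Rpl22, a large-subunit protein also known for roles in lymphocytes, had folds of 7.29, 8.5 and 8.34 in estradiol replicates 1, 2 and 3, and 7.5, 11.1 and 10.9 in vehicle replicates 1, 2 and 3. At its start Rps2 had 6.79, 9.62 and 7.01 in estradiol replicates 1, 2 and 3, and 5.89, 10.8 and 8.67 in vehicle replicates 1, 2 and 3. Rpl19, which takes part in a bridge between the subunits, had 5.63 and 8.36 in estradiol replicates 2 and 3, and 6.25 in vehicle replicate 3. With transcript starts added to the span ends, each of the 53 genes had a peak in at least 1 library, against 43.0% of other genes, and 28 had one in all 6 (52.8%), against 12.4% of other genes. This check was chosen after seeing the data.

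**Figure D3:**
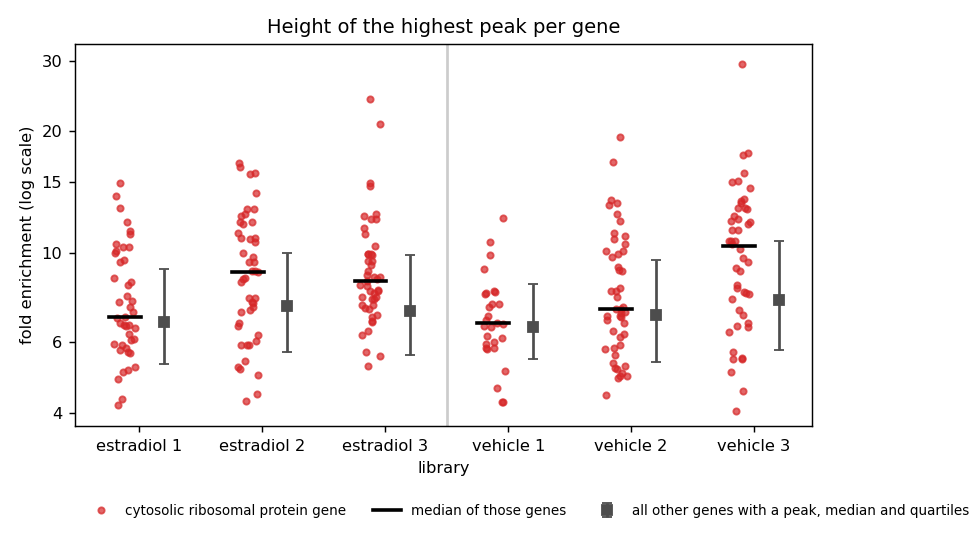
Fold enrichment (y axis, log scale) of the highest peak within 1 kb of a gene end, by library (x axis); each red point is a ribosomal protein gene with a peak, black lines are their medians, and grey squares with bars are the median and quartiles of all other protein-coding genes with a peak. The red medians lie at 6.91 to 8.96 in estradiol and 6.68 to 10.4 in vehicle libraries, inside the grey quartiles in each library.

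Among genes with a peak, the median fold of ribosomal protein genes was 6.91, 8.96 and 8.5 in estradiol replicates 1, 2 and 3, and 6.68, 7.25 and 10.4 in vehicle replicates 1, 2 and 3. For other genes with a peak it was 6.73, 7.35 and 7.16 in the estradiol libraries and 6.54, 6.99 and 7.64 in the vehicle libraries. The ribosomal protein median thus lay above that of other genes in each library and within their quartiles. Other genes reached 43.7 to 54.5 in estradiol libraries and 40.4 to 52.8 in vehicle libraries, where the highest ribosomal protein gene reached 14.9 to 24.1 and 12.2 to 29.4. These maxima were taken over 3070 to 7305 other genes but only 28 to 48 ribosomal protein genes per library, so they are not like for like. Over the 261 pairs of gene and library with a peak, the median summit held 9 fragments, and 55 held 6 or fewer.

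Other gene lists were counted by the same rule. Of 28 further cytosolic ribosomal protein genes, 20, 22 and 23 had a peak in estradiol replicates 1, 2 and 3, and 10, 22 and 23 in vehicle replicates 1, 2 and 3. All 6 libraries had a peak at 10 of the 28 (35.7%), at 11 of 31 proteasome subunit genes (35.5%) and at 15 of 78 mitochondrial ribosomal protein genes (19.2%). Of 8 genes with translation elongation factor symbols, 3 had peaks in all 6 libraries (Eef1d, Eef1g and Eef2). The 8 include Eef1e1 and Eef2k, which are not elongation factors themselves. Of 6 matched paralogs of ribosomal protein genes with restricted expression or unclear roles, 0 had peaks in all 6 libraries. Rpl3l and Rpl22l1 had them in 3 estradiol and 2 vehicle libraries, Rpl7l1 in 2 estradiol libraries and 1 vehicle library, and Rpl10l, Rpl39l and Rps27l in none. Of 11 genes known as estrogen targets outside the brain, 1 had peaks in all 6 libraries (Rara, a retinoic acid receptor gene) and 0 had one in every estradiol and no vehicle library near a gene end. The share of other protein-coding genes with peaks in all 6 libraries was 11.5%.

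**Figure D4:**
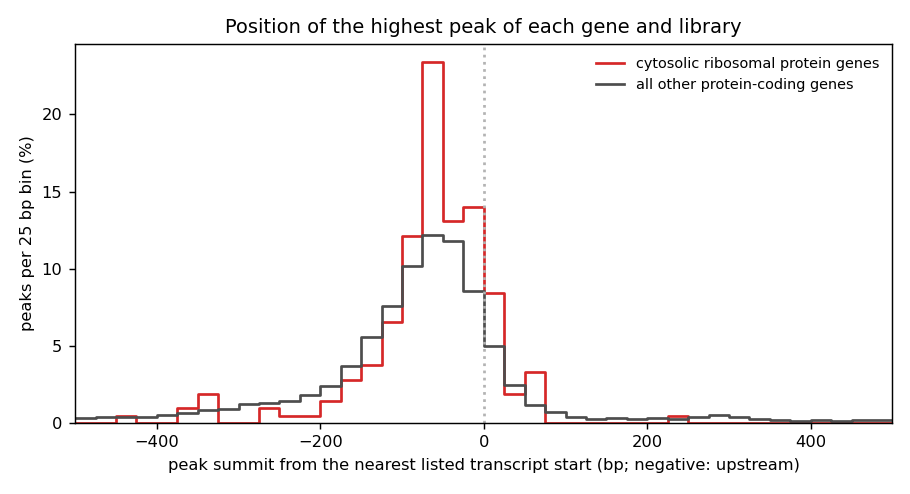
Percent of peaks per 25 bp bin (y axis) by the distance of the summit from the nearest listed transcript start (x axis, negative is upstream), for the highest peak of each gene and library, all 6 libraries joined. Red is cytosolic ribosomal protein genes and grey all other protein-coding genes; both distributions rise just upstream of the start, where 72.9% of the red and 55.9% of the grey peaks lie within 150 bp.

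Summits lay just upstream of the transcript start. RefSeq promoter records were available for 44 of the 53 genes, of which 41 had a peak near a gene end. Of their 214 highest peaks, 156 (72.9%) had the summit within 150 bp upstream of the nearest listed start, and 197 (92.1%) within 250 bp to either side. For other genes the shares were 55.9% and 76.3% of 27622 peaks. The median position was -59, -54 and -56 bp in estradiol replicates 1, 2 and 3, and -57.5, -55 and -56 bp in vehicle replicates 1, 2 and 3. For other genes it was -75, -65 and -63 bp in the estradiol libraries and -85, -67.5 and -65 bp in the vehicle libraries.

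At the 26 genes with peaks in all 6 libraries, the 6 summits spread over a median of 64 bp, from 9 bp at Rplp0 to 362 bp at Rps19. Other genes with peaks in all 6 libraries had a median spread of 76 bp, so the ribosomal protein genes stood close to them. The spread was at most 100 bp at 17 of the 26 (65.4%) and at 64.8% of the 2513 other genes. Rps14 (305 bp), Rpl15 (206 bp) and Rpl13a (168 bp) were also wide. At Rps19 the width came from estradiol replicate 2, where a neighbouring peak was the higher (10 against 6). Outside these 26 genes, the summits' distances from the nearest listed start ranged over 5419 bp at Rpl4 and 5896 bp at Rps10. Each of these ranges came from 1 library in which a peak at the far gene end was slightly higher than the one at the start. The folds were 5.04 against 4.98 at Rpl4 in vehicle replicate 3, and 5.2 against 5.07 at Rps10 in estradiol replicate 2. Among the narrow ones of the 26, Rps9 had its 6 summits within 16 bp of each other at a median of -62 bp, Rpl12 within 25 bp at -56 bp and Rpl11 within 28 bp at -20 bp. At Rpl24 and Rpl27 the median lay downstream of the start, at 39.5 and 56 bp. Rplp2 had its summits at -370 to -336 bp, in a peak that also lay near an end of Pidd1. The highest peak of Rpl18 lay at -2792 to -2690 bp from its only listed start in all 6 libraries, at the end of the RefSeq span upstream of that start. Within 1 kb of that start Rpl18 had lower peaks of 6.43, 9.11 and 8.7 in estradiol replicates 1, 2 and 3, and 6.04 and 4.69 in vehicle replicates 2 and 3.

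Some peaks lay near a second gene. At 10 of the 50 genes with a peak near an end, a highest peak was also within 1 kb of an end of another protein-coding gene (20.0%), against 29.7% of the 8741 other genes with a peak. Of these 10, 6 had peaks in all 6 libraries, against 37.9% of other genes with such a neighbour. The 10 include Rpl7a with Med22, Rps27 with Rab13 and Rps28 with Ndufa7. Of the 40 without such a neighbour, 20 had peaks in all 6 libraries, against 24.9% of other genes without one. Genes with a small nucleolar RNA annotated inside them, which guide chemical modification of ribosomal RNA, numbered 20, and 10 of them had peaks in all 6 libraries, against 16 of 33 without one. Both lie close to the 49.1% of all 53 genes, and no such split of other genes is given.

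The promoters were searched for short motifs. In windows of 250 bases before to 50 after each start, searched on both strands, the full estrogen response element (GGTCA and TGACC, 3 bases apart) was found in 0 of 44 ribosomal protein genes and in 0.063% of 17448 other genes, a share at which 0 of 44 is no result about these genes. Its single arm AGGTCA was found in 3 of 44 (6.82%; Rpl22, Rpl24 and Rps3) and in 16.7% of other genes. A match to the AP-1 site TGANTCA was found in 1 of 44 (Rpl22) and in 8.13% of other genes. The ETS core CCGGAAG was found in 18 of 44 (40.9%), among them Rps18 at -75, Rps10 at -29 and Rpl19 at -39, and in 12.9% of other genes. The Sp box GGGCGG was found in 26 of 44 (59.1%) and 49.2% of other genes, and CCAAT in 14 of 44 (31.8%) and 42.3%. The YY1 core AAGATGGC was found in 3 of 44 (6.82%) and 3.56% of other genes. The palindromic NRF1 site was found in 1 of 44 (2.27%) and 1.47% of other genes, the E-box CACGTG in 6 of 44 (13.6%) and 8.9%, and the TATA box TATAAA in 4 of 44 (9.09%) and 14.8%. A run of at least 7 pyrimidines that reached to within 10 bp of the start, counted over its full length, was found in 25 of 44 (56.8%) and 23.0% of other genes. Matches of different motifs were counted separately and can overlap, and the AGGTCA arm can be part of a full element. They describe letters, not bound sites.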

How the data were processed

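Peak lists of 6 CUT&RUN libraries (3 estradiol, 3 vehicle) were analysed. Per the submitters' processing notes, the build was mm10 and the tools were MACS2, Bowtie2, cutadapt, SAMtools, Picard and deepTools, with no versions or roles. Each list comes from 1 library and its peak names carry a q-value of 0.01. The use of a control library in peak calling is not stated in the sources used here. The authors' deposited columns are an integer score (10 times the −log10 q-value, rounded down), a fold enrichment (ratio), p-value and q-value at the summit, both as −log10, and a summit offset. These values belong to each peak and were used only to describe, rank or filter within a list.

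Summit fragments were estimated from fold and p with a pseudocount of 1 and a Poisson tail, matching within 0.0002 for 100% of the peaks fitted. Peaks within 1 kb of either end of a RefSeq gene span (GRCm38.p6) were counted per gene, and the highest was kept. Heights were not tested between lists, and no test was run over the ribosomal protein genes as a set. Genes named with all values were the 8 with the highest median rank, those differing by at least 2 libraries between the groups, and those without a peak. Members and lists were chosen with earlier results of these data known. Python 3.11.15, pandas 2.3.3 and NumPy 2.4.6 were used, and assignment and fragment estimates were tested on simulated data.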

Additional observations from a re-analysis of the deposited data

How the results depend on the processing

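The count of 26 genes with peaks in all 6 libraries was 25 with a 500 bp window (10.5% of other genes), 28 with 2 kb (12.7%), 26 with summits inside the window (11.4%), 21 with equally long lists (7.77%) and 16 with peaks whose −log10 q reached 5 (6.13%). With transcript starts alone it was 24 of the 44 genes with a promoter record, against 12.4% of 17448 other genes with one. Rpl3, Rps14 and Rps29 have no record and dropped out. Rpl18 dropped out as well, as vehicle replicate 1 had no peak near its listed start, and Rpl22 and Rps2 came in. With 1 library left out it ranged over 26 to 39, the highest without vehicle replicate 1. Genes that lacked a peak only in that library were added there, 24.5% of the 53 genes and 5.5% of other genes, so both shares rose. The count of genes with a peak in every estradiol and no vehicle library was 0 to 1 over the left-out libraries. The 1 is Rps10, without vehicle replicate 3, a setting for which no share of other genes is given. The reverse count was 0 in each setting run. The difference between the groups was 3.17 to 7.67 genes over the other settings, the lowest on equally long lists without vehicle replicate 1, and -2.33 to 7.67 over the left-out libraries, turning to -2.33 without vehicle replicate 1; the cause was not tested. Under a replicate block that pairs libraries by number, 1 gene (Rps10) gained a peak with estradiol in at least 2 of 3 pairs and lost it in 0. No share of other genes is given for this paired rule. A peak in at least 2 more estradiol than vehicle libraries, which Rps10 also had, was found at 2.08% of other genes. The paired difference was 4.33 ± 9.24 (SD). Same-numbered libraries did not deviate together (correlations of 0.0305, -0.186 and -0.0317), so the numbers were not taken as pairs. The block gives no value for the count of genes with peaks in all 6 libraries.

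The calling limit restricts what absence can mean: a peak needed about 4 fragments, and vehicle replicate 1 listed the fewest peaks. Whether sequencing depth differed between libraries was not tested.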

Other observations

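Among the other lists, Rpl39 and Mrps35 had a peak near an end in every estradiol and no vehicle library. Rpl39 was 1 of 28 further cytosolic and Mrps35 1 of 78 mitochondrial ribosomal protein genes. Of all protein-coding genes outside the 53, 0.261% showed this pattern. Rpl39 and Mrps35 were chosen after their values were seen. Rpl39, a small protein lining the ribosome's exit tunnel, had folds of 4.4, 4.28 and 5.75 in estradiol replicates 1, 2 and 3, on 4, 4 and 6 summit fragments. Its peaks lay on the X chromosome at 37085554 to 37085580, 37085501 to 37085535 and 37085235 to 37085288 in estradiol replicates 1, 2 and 3. None of them overlapped another, so they were not 1 shared region. Mrps35, a small-subunit protein of the mitochondrial ribosome, had 6.16, 7.75 and 5.43 in estradiol replicates 1, 2 and 3, on 6, 8 and 6 fragments, and these overlapped (chromosome 6, 147042659 to 147042791).

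Ribosomal protein genes have many processed pseudogenes, copies of their spliced mRNA elsewhere in the genome. Peaks overlapped 0 of 301 such pseudogenes named in RefSeq in any library, and 108 of 10128 other pseudogenes (1.07%). The ribosomal ones are shorter, with a median length of 527 bp against 943 bp. How reads that map to several copies were treated is not stated in the sources used here.

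The order of the 26 genes with peaks in all 6 libraries by height was moderately alike between libraries, within and between the groups. Spearman's rho across these genes was 0.514 to 0.716 between estradiol libraries, 0.522 to 0.675 between vehicle libraries and 0.42 to 0.75 between the groups. The highest value, 0.75, was between the replicate 3 libraries of both groups. For replicates 1 and 2 the same-numbered libraries had 0.672 and 0.477. Genes are not independent replicates, and each pair of lists differs in length.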
